A study of Mus musculus with 2 samples.

Results

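The SoxB and SoxC genes encode transcription factors that mark the passage of a neural cell from dividing progenitor to young neuron. The 8 genes Sox1, Sox2, Sox3, Sox14, Sox21, Sox4, Sox11 and Sox12 were chosen by symbol, and all 8 were found among the 43346 genes of the tables. They were read in 3 subgroups, SoxB1 (Sox1, Sox2 and Sox3), SoxB2 (Sox14 and Sox21) and SoxC (Sox4, Sox11 and Sox12). The tissue was the central nervous system of mouse embryos of the C57BL/6J strain, taken at embryonic day 14, with no treatment or altered allele named. There was 1 group of 2 biological replicates, each a pool of male and female littermates. The labels give both pools the same donor identifier and different biosamples, so the spread given here is between 2 pools. With 1 group and 2 values, no exact permutation test can reach 0.05, and each comparison is given with the values of both replicates.

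All Sox factors bind DNA through a high mobility group domain, the HMG box. SoxB1 proteins are activators that hold neural cells in the progenitor state, often together with a partner factor of the POU or Pax families. SoxB2 proteins share nearly the same box but act as repressors, and they promote or limit differentiation in defined domains of the neural tube. SoxC proteins are activators that accumulate in cells leaving the cycle and switch on neuronal genes such as Tubb3 and Dcx.

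The coding sequence of the box separates SoxB from SoxC. The first 90 of its 237 bases are given for all 8 genes, from GENCODE M21 transcripts on mm10, 5′ to 3′. Capitals mark the bases that differ from Sox2, which therefore has none.
Sox2: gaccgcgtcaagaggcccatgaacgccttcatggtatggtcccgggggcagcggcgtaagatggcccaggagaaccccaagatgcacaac
Sox1: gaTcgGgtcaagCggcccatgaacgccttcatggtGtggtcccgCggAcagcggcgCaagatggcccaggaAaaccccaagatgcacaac
Sox3: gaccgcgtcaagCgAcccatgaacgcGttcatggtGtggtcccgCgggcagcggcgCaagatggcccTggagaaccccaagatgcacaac
Sox14: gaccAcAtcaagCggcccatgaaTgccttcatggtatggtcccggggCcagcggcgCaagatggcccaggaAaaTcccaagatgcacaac
Sox21: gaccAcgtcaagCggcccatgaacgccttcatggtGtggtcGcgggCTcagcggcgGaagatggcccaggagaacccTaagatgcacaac
Sox4: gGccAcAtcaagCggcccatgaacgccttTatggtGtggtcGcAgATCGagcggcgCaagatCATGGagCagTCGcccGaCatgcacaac
Sox11: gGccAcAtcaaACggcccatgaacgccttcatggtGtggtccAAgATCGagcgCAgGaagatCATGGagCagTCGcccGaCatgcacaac
Sox12: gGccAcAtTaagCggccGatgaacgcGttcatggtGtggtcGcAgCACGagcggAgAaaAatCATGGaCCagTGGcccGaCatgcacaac

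In this stretch Sox1, Sox3, Sox14 and Sox21 differed from Sox2 at 8, 7, 8 and 8 bases. The SoxC genes differed from Sox2 at 24 bases in Sox4, 26 in Sox11 and 29 in Sox12. Over the whole box, identity was 87.8% to 89.5% within SoxB1, 86.5% between Sox14 and Sox21, and 84.4% to 89.5% within SoxC. SoxB1 and SoxB2 boxes were 84.0% to 88.2% identical, about as alike as the boxes within a subgroup. SoxB1 and SoxC boxes were 66.7% to 70.5% identical, and SoxB2 and SoxC boxes 67.5% to 73.0%. The longest run of identical bases between any pair of boxes was 48, between Sox4 and Sox11, which is shorter than a read.

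**Figure D1:**
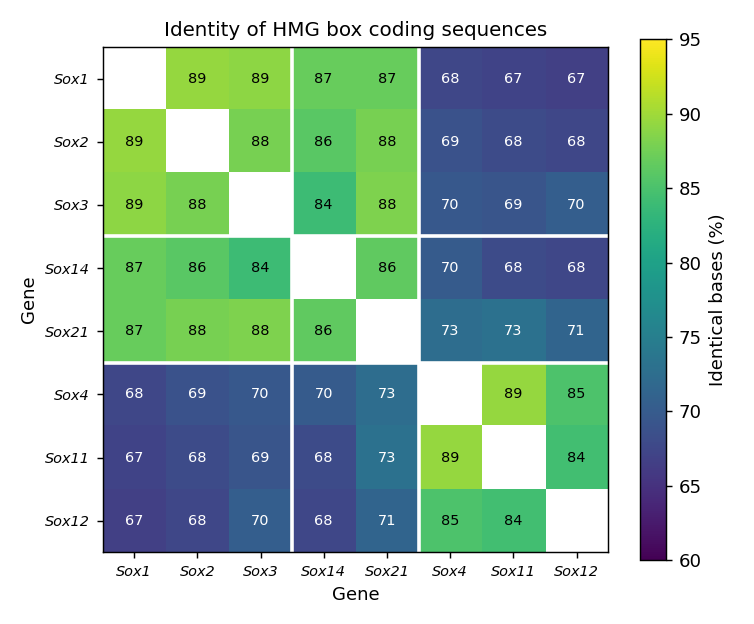
Identity of the HMG box coding sequences of the 8 genes, as the percent of identical bases over 237 positions, rounded to whole percents. White lines part SoxB1, SoxB2 and SoxC; the SoxB genes form 1 block of 84.0% to 89.5% and the SoxC genes another of 84.4% to 89.5%.

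All 8 genes were detected, meaning at least 1 TPM (a transcript's share of all transcripts, scaled per length) in both replicates. Of all genes 34.6% were detected, and of protein-coding genes 63.4%. The libraries held 102727538 and 138440954 expected counts, of which 2.45% and 2.35% fell on spike-in RNAs. Member counts ran from 2524 to 123037. The libraries were not alike in tissue: 34 marker genes of muscle, cartilage, mesenchyme and other tissues outside the neural tube summed to 0.243% of transcripts in replicate 1 and 0.0571% in replicate 2. Each level is therefore given for each library. TPM are per transcript length and can be compared between genes.

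Sox2 (ENSMUSG00000074637.6), the SoxB1 factor that maintains neural stem and progenitor cells, lay at chr3:34650405-34652461 on the plus strand of mm10. Its level was 56.8 TPM in replicate 1 and 85.1 TPM in replicate 2, with a mean of 70.9 ± 20.02 TPM (SD, n = 2). That mean was above 82.1% of the 13609 detected protein-coding genes. The Sox2 span given here, from GENCODE M21, holds a transcript of 2057 bases, while the model behind its TPM has 2457 bases. Sox3 (ENSMUSG00000045179.9), an X-linked SoxB1 factor of progenitors, the hypothalamus and the pituitary, lay at chrX:60891366-60893430 on the minus strand. Its level was 21.4 TPM in replicate 1 and 31.5 TPM in replicate 2, a mean of 26.4 ± 7.20 TPM (SD, n = 2). Sox1 (ENSMUSG00000096014.1), which is expressed in the neural plate and later in ventricular zone cells, lay at chr8:12395295-12400126 on the plus strand. Its level was 14.2 TPM in replicate 1 and 22.5 TPM in replicate 2, a mean of 18.4 ± 5.90 TPM (SD, n = 2). All 3 SoxB1 genes were higher in replicate 2, and Sox2 was above the other SoxB1 genes in both libraries. The shares of the genes in the SoxB1 sum hardly moved between libraries. Sox2 made up 61.5% and 61.1% of it, Sox3 23.1% and 22.7%, and Sox1 15.4% and 16.2%.

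Sox21 (ENSMUSG00000061517.8), a SoxB2 repressor that counters SoxB1 activity, lay at chr14:118233232-118237030 on the minus strand. Its level was 17.7 TPM in replicate 1 and 22.4 TPM in replicate 2, a mean of 20.03 ± 3.29 TPM (SD, n = 2). Sox14 (ENSMUSG00000053747.9), a SoxB2 factor of restricted groups of neurons in the diencephalon, midbrain, hindbrain and spinal cord, lay at chr9:99874106-99876170 on the minus strand. Its level was 22.0 TPM in replicate 1 and 16.4 TPM in replicate 2, a mean of 19.2 ± 3.95 TPM (SD, n = 2). The SoxB2 genes differed between the libraries in opposite directions, so that Sox14 was the higher of the pair in replicate 1 and Sox21 in replicate 2. Sox14 made up 55.4% of the SoxB2 sum in replicate 1 and 42.3% in replicate 2. It was the only member with a lower TPM in replicate 2.

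Sox4 (ENSMUSG00000076431.4), a SoxC activator of neuronal genes, lay at chr13:28948919-28953713 on the minus strand. Its level was 180.0 TPM in replicate 1 and 235.1 TPM in replicate 2, a mean of 207.6 ± 39.0 TPM (SD, n = 2). That mean was above 95.5% of detected protein-coding genes and was the highest of the 8 members in both libraries. Sox11 (ENSMUSG00000063632.6), which acts together with Sox4 in young neurons, lay at chr12:27334264-27342574 on the minus strand. Its level was 129.4 TPM in replicate 1 and 179.9 TPM in replicate 2, a mean of 154.6 ± 35.7 TPM (SD, n = 2), above 93.5% of detected protein-coding genes. Sox12 (ENSMUSG00000051817.8), the third SoxC gene, is known as the weakest activator of the subgroup in mouse and lay at chr2:152393611-152398063 on the minus strand. Its level was 70.6 TPM in replicate 1 and 71.5 TPM in replicate 2, a mean of 71.0 ± 0.615 TPM (SD, n = 2). Sox12 differed least between the libraries. Its scaled counts were 189 CPM (counts scaled to library size, not per length; 95% interval, 187 to 192) and 192 CPM (190 to 194), so here the difference was within counting error.

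**Figure D2:**
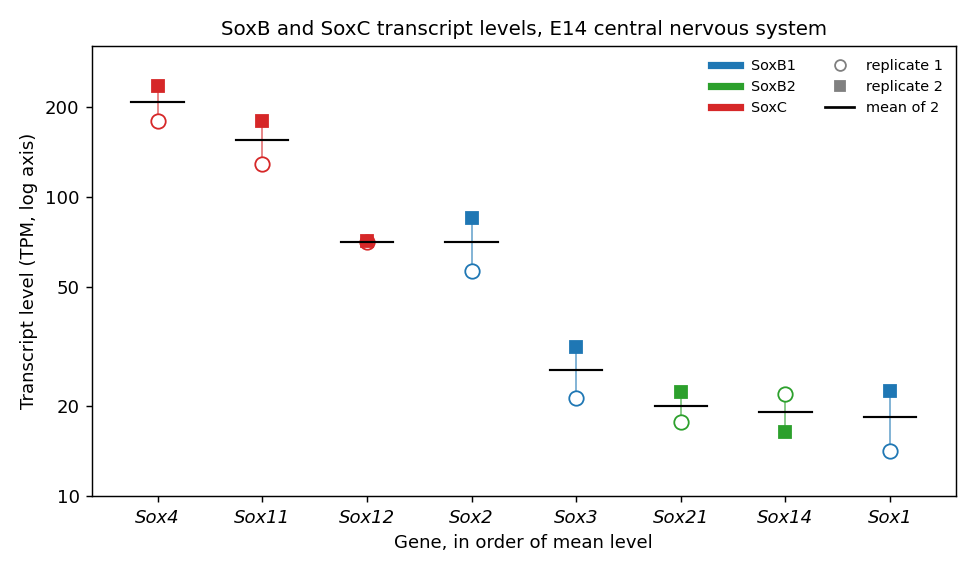
Level of each gene in TPM on a log axis, in order of mean level, with an open circle for replicate 1, a filled square for replicate 2 and a line for the mean of 2. Sox4 and Sox11 stand above the rest, the replicates of Sox12 coincide at 70.6 and 71.5 TPM, and Sox14 alone is higher in replicate 1.

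In order of mean TPM the members ran Sox4, Sox11, Sox12, Sox2, Sox3, Sox21, Sox14 and Sox1. The replicate ranges of Sox4 and Sox11 did not overlap, but only just, since the lower Sox4 value of 180.0 TPM lay beside the higher Sox11 value of 179.9 TPM. Within a library Sox4 was 1.39 times Sox11 in replicate 1 and 1.31 times in replicate 2. Sox11 was above Sox12, and Sox2 above Sox3, without overlap. Sox12 and Sox2 overlapped and changed places between the libraries. Neighbours among Sox3, Sox21, Sox14 and Sox1 overlapped as well, so no order was resolved among these 4 low members, although Sox3 was above Sox21 and Sox1 within each library. By CPM Sox11 had 662 and 920 CPM and stood above Sox4 with 522 and 682 CPM. The Sox11 model is 8311 bases long and that of Sox4 is 4795, so the order of this pair depends on dividing by length.

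SoxC transcripts exceeded SoxB1 transcripts in both libraries. The summed SoxC level was 380 TPM in replicate 1 and 486 TPM in replicate 2, a mean of 433 ± 75.3 TPM (SD, n = 2). The summed SoxB1 level was 92.3 TPM in replicate 1 and 139 TPM in replicate 2, a mean of 116 ± 33.1 TPM (SD, n = 2). The summed SoxB2 level was 39.7 TPM in replicate 1 and 38.7 TPM in replicate 2, a mean of 39.2 ± 0.665 TPM (SD, n = 2). No pair of these ranges overlapped. SoxC was 4.12 times SoxB1 in replicate 1 and 3.50 times in replicate 2, a log2 ratio of 1.92 ± 0.17 (SD, n = 2). SoxB1 was 2.33 and 3.59 times SoxB2, a log2 ratio of 1.53 ± 0.44 (SD, n = 2). These sums hold 3 SoxB1 and 2 SoxB2 genes, and Sox2 alone made up 61.5% and 61.1% of the SoxB1 sum. Median levels were closer, at 21.4 and 31.5 TPM over SoxB1 and 19.8 and 19.4 TPM over SoxB2. SoxC was 9.58 and 12.6 times SoxB2. In bulk tissue, fewer cells of a type and less RNA per cell cannot be told apart, so a sum gives neither the number of progenitors nor that of neurons.

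**Figure D3:**
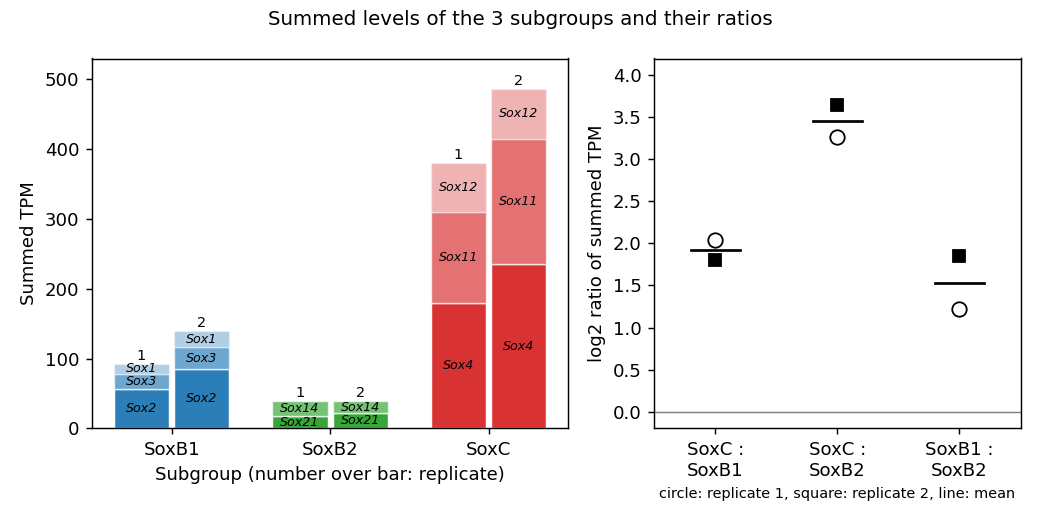
Left, summed TPM of SoxB1, SoxB2 and SoxC in replicates 1 and 2, with each bar divided by gene. Right, log2 ratios of the sums within each library (circle, replicate 1; square, replicate 2; line, mean). SoxC is the highest sum in both libraries, at 380 and 486 TPM, and all ratios lie above 0.

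The 8 members made up 76.6% and 80.6% of the summed TPM of the 19 Sox genes listed. SoxC alone made up 56.8% and 59.0% of that sum, SoxB1 13.8% and 16.9%, and SoxB2 5.93% and 4.69%. The 4 highest Sox genes were the members Sox4, Sox11, Sox12 and Sox2. The other members ranked 8, 9, 11 and 12 of 19, among Sox genes of other subgroups such as Sox13 (29.9 and 31.1 TPM), Sox9 (29.5 and 26.0 TPM) and Sox18 (21.1 and 17.4 TPM). Of the 11 Sox genes outside SoxB and SoxC, 9 were detected, and the median over all 11 was 14.0 ± 2.35 TPM (SD, n = 2). Sox15 was the lowest of the 19, at 0.31 and 0.11 TPM.

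Between the libraries, no member reached a 2-fold difference, against 4.24% of the 14340 genes compared, which had a mean of at least 200 counts. Ratios are of replicate 2 to replicate 1, from counts scaled by the trimmed mean of M values (TMM). On the log2 scale the ratio was 0.67 for Sox1, 0.59 for Sox2 and 0.57 for Sox3. It was 0.47 for Sox11, 0.39 for Sox4, 0.34 for Sox21 and 0.02 for Sox12. Sox14 had a ratio of -0.42, from 25.8 CPM (24.8 to 26.8) in replicate 1 and 19.2 CPM (18.47 to 19.96) in replicate 2. Thus 7 of the 8 members had a ratio above 0, against 54.5% of genes. When total gene counts set the scale, the Sox12 ratio was just below 0 and 6 members were above. The median ratio was 0.43 over the members and 0.02 over all genes compared, where the median size of a ratio was 0.15. A ratio as high as that of Sox1 was found in 0.962% of the 14340 genes compared, and one as high as that of Sox21 in 5.56%. The SoxB1 ratios ranged only from 0.57 to 0.67, while the SoxC genes ranged from the near 0 of Sox12 to the 0.47 of Sox11. One library against another gives no p-value, so these ratios describe 2 pools.

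The libraries also differed in marker genes of brain regions and of tissues outside the neural tube. All gene lists were chosen with earlier results of these data known, so their counts describe these libraries and are no independent support. Telencephalon genes had a median log2 ratio of 0.98, with 8 of 8 above 0 and 4 at least 2-fold higher (background, 0.286%). Lhx2, their most abundant gene, had 150 and 260 TPM, and Emx2, the lowest, 18.4 and 23.7 TPM. Hox genes of the hindbrain and spinal cord were divided, with 5 of 9 at least 2-fold higher and 4 below 0, and a median of 1.33. The 4 below 0 were Hoxa5, Hoxb4, Hoxb5 and Hoxb2, from -0.08 to -0.56. Of the 5 higher, all but Hoxb8 had 116 counts or fewer in replicate 1 and passed the minimum of 200 through replicate 2. Hoxb8 had 23.6 and 61.0 TPM and Hoxc8 0.02 and 4.99 TPM. Of 34 genes of inner ear, lens, surface ectoderm, mesenchyme, muscle, cartilage, and neural crest or Schwann cells, 28 passed the count minimum. All 28 were lower in replicate 2, and 27 at least 2-fold (background, 3.95%). Oc90, Otog, Tecta, Trp63, Myod1, Myog, Tnnc2, Mylpf and Foxd3 had fewer than 200 counts in replicate 2. They passed the minimum through replicate 1, so for them the minimum itself favoured a lower value in replicate 2. The summed level of the 34 genes was 2429 TPM in replicate 1 and 571 TPM in replicate 2. For muscle the sum was 362 and 7.93 TPM (Mylpf, 163 and 2.87 TPM), for cartilage 697 and 87.5 TPM, for mesenchyme 1048 and 408 TPM, and for surface ectoderm 114 and 10.9 TPM. For the inner ear it was 61.5 and 1.01 TPM (Oc90, 56.0 and 0.31 TPM), for the lens 10.3 and 2.99 TPM, and for neural crest and Schwann cells 136 and 52.5 TPM. The lens sum rested on Cryab, at 10.01 and 2.57 TPM, the only lens gene that passed the count minimum. The other lens genes were at or near 0, such as Cryaa with 0.02 and 0 TPM and Mip with 0.22 and 0.2 TPM. Cryba1 was higher in replicate 2, with 0.05 and 0.22 TPM, so the lens list as a whole shows no clear difference. Sox2, Sox3, Sox4 and Sox11 are also known from some of these tissues, and the part of these differences in the members' ratios was not tested.

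**Figure D4:**
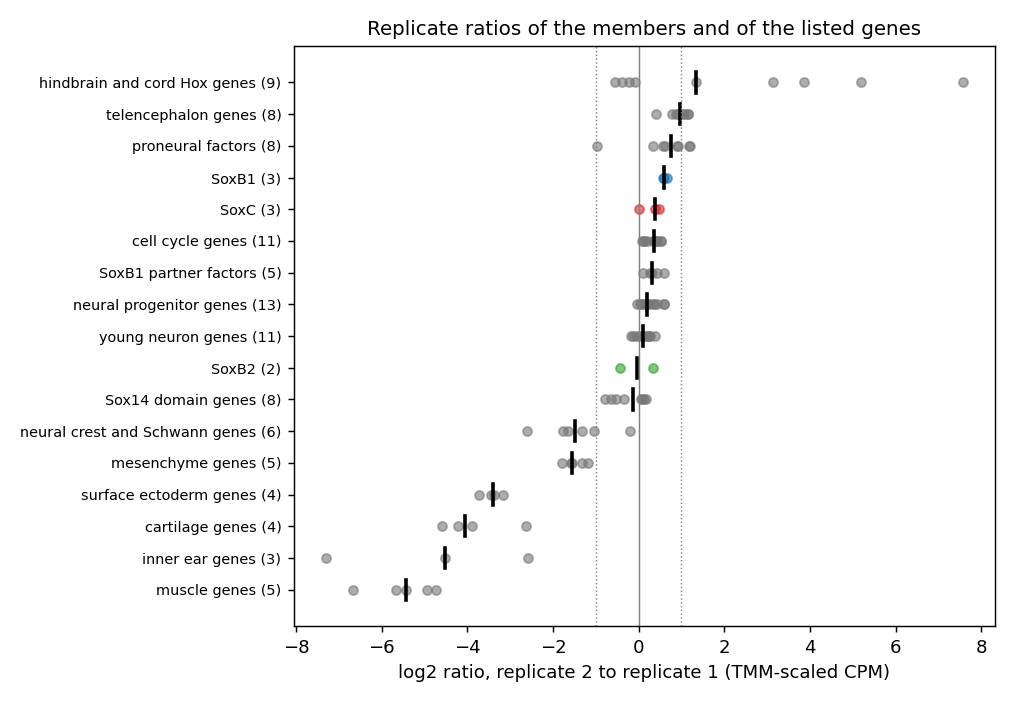
Log2 ratio of replicate 2 to replicate 1 for each gene of the listed groups (points; number of genes compared in parentheses) with the median of each list (black bar). Solid and dotted lines mark 0 and 2-fold; the SoxB1 and SoxC genes lie between 0.02 and 0.67, Sox14 at -0.42, and the muscle genes lowest with a median of -5.43.

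The labelled tissue was checked against progenitor and neuron genes, the cell states that SoxB1 and SoxC mark. Each of the 13 progenitor genes was detected, and their median level was 52.9 ± 8.78 TPM (SD, n = 2). Vim, an intermediate filament gene of radial glia, was the highest at 913 and 961 TPM, and Gli3, a hedgehog pathway factor, the lowest at 10.95 and 12.22 TPM. Their median log2 ratio was 0.20, with 12 of 13 above 0. All 11 cell cycle genes were detected and had a ratio above 0, with a median of 0.35. Pcna, the replication clamp, was the highest at 177 and 233 TPM, and Mki67 the lowest at 20.4 and 27.0 TPM. All 3 SoxB1 ratios thus lay above the medians of the progenitor and cell cycle lists and below that of the telencephalon list. Within the progenitor list the ratios ran from -0.04 for Hes1 to 0.60 for Hes5, both Notch targets.

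Of the 6 partner factors of SoxB1 proteins, 5 were detected, all with a ratio above 0 and with a median of 0.32. Pou3f3, a POU factor of the neural tube, was the highest at 45.1 and 61.1 TPM. Pou5f1, the partner of Sox2 in pluripotent cells, was listed at 0.01 and 0.02 TPM from 1 and 2 counts.

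Each of the 11 young neuron genes was detected, and their median level was 288 ± 42.2 TPM (SD, n = 2), against a median of 155 ± 35.7 TPM over the 3 SoxC genes. Tubb3, the neuronal beta tubulin, had 1820 and 2133 TPM, and Nhlh1, a factor of newborn neurons, 15.1 and 19.6 TPM. The median log2 ratio was 0.11, with 8 of 11 above 0. All 4 reported SoxC targets, Tubb3, Dcx, Map2 and Tead2, had ratios above 0, between 0.12 and 0.27, with a median of 0.23. Of these, Tubb3, Dcx and Map2 are also among the 11 young neuron genes, so the lists are not separate sets. Of 10 proneural factors 8 were detected, with a median ratio of 0.75 over the 8 compared. Of these, 7 were above 0, 2 of them at least 2-fold higher (background, 0.286%), and Atoh1 was below at -0.98. Neurod6, a cortical neuron factor, was the highest at 89.0 and 203 TPM, and Neurog3 the lowest at 0.13 and 0.17 TPM. The ratios of Sox4 and Sox11, at 0.39 and 0.47, lay between the medians of the young neuron and proneural lists. That of Sox12, at 0.02, lay below both medians.

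Genes of the domains in which Sox14 is known lay on both sides of 0. Of 9 such genes, from V2 interneurons and from GABAergic neurons of the midbrain and diencephalon, 8 were detected. Of the 8 compared, 4 had a ratio below 0 and 4 above, with a median of -0.14. Gata2, Gata3, Tal1 and Dmbx1 were the 4 below 0, from -0.34 to -0.78, and Gad1, Gad2, Slc32a1 and Tal2 lay between 0.07 and 0.17. Gad1 had 105 and 111 TPM and Foxn4, the lowest, 0.96 and 0.78 TPM. Among 8 hypothalamus and pituitary genes, which share tissue with Sox3, 4 were detected. Of the 8, 3 passed the count minimum. Nkx2-1 was at 20.4 and 43.4 TPM, a ratio of 1.08, and Pomc was at 13.1 and 5.94 TPM, a ratio of -1.12. Six3 had a ratio of 0.46, and Sox3 itself 0.57. The range of these 3 ratios is too wide to place Sox3.

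The genes nearest in level to each member were sought among 130 genes of the other lists, by distance over log2(TPM + 1) in the 2 libraries. Nearest to Sox2 were Ccnb1 (60.7 and 88.4 TPM) and Top2a, both genes of dividing cells. Nearest to Sox3 were Neurod1 and Mki67, and to Sox1 Six3 and Nhlh1. Nearest to Sox21 were Prom1 (18.1 and 23.0 TPM) and Emx2, and to Sox14 Sox18 (21.1 and 17.4 TPM) and Rfx4. Nearest to Sox4 were Pcna (177 and 233 TPM) and Msi1, to Sox11 Cdk1 and Mcm7, and to Sox12 Mcm6 and Top2a. With 2 libraries this likeness is one of level.

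The members differ from most genes in structure. For 6 of the 8 a single transcript of 1 exon carried all of the gene's TPM. Only 2.69% of detected protein-coding genes have single-exon coding transcripts alone. Sox12 and Sox14 have a second, 2-exon transcript in the tables, which took 0.29% and 0.39% of the TPM of Sox12 and 1.02% and 1.69% of that of Sox14. Coding lengths are more alike than the untranslated ends. Sox11 has a coding sequence of 1185 bases and a 3′ UTR of 6960 bases counted with the stop codon, Sox4 has 1320 and 2783, and Sox3 has 1350 and 715.

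Several members overlap other genes. Sox1 lies wholly inside the span of Sox1ot and Sox2 wholly inside that of Sox2ot, both on the same strand. Strand alone therefore cannot part their reads where exons are shared, and shared exons were not examined. Sox1ot was at 11.1 and 21.2 TPM, a log2 ratio of 0.93, above the 0.67 of Sox1. Sox2ot was not matched and was not analysed here. On the opposite strand, Gm26735 overlaps Sox4 over 2753 bases and was at 3.52 and 3.84 TPM, and Gm4675 overlaps Sox21 over 799 bases and was at 1.65 and 2.57 TPM. Gm14662, 222 bases from Sox3 on the opposite strand, was at 1.21 and 1.39 TPM. These antisense neighbours were all far below their member in level. Sox11 had no annotated gene within 20 kb. Near Sox12, Nrsn2 (20.7 and 18.3 TPM) and Zcchc3 (18.0 and 17.1 TPM) had ratios of -0.17 and -0.08, against the 0.02 of Sox12.

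A second set of tables on mm9 gave RPKM (reads scaled to model length and library size) for 7 of the members, while Sox1 was not analysed there. They are a second processing of the same tissue and not a further sample. No label matches the 2 fields of these tables to the replicates, so no direction between replicates was read from them. Sox4 had 54.0 and 42.5 RPKM, Sox11 23.7 and 18.0, Sox2 12.9 and 8.57, and Sox12 8.70 and 8.88. Sox14 had 3.41 and 4.59 RPKM, Sox3 4.36 and 2.95, and Sox21 3.04 and 2.44. Sox12 hardly differed between the fields. Sox14 was higher in field 2, while Sox4, Sox11, Sox2, Sox3 and Sox21 were higher in field 1. The mm9 Sox11 model spans 2013 bases, against 8311 on mm10. The strand-matched contig over Sox11 was 11465 bases long, reached 8960 bases past the 3′ end of that model and had a mean depth of 3802 (summed read bases per position, both libraries together). The Sox4 contig was 11874 bases long with a mean depth of 2720, so by depth the order of Sox11 and Sox4 was the reverse of that by TPM. The Sox12 contig had a depth of 1564 over 6366 bases, that of Sox3 763 over 2284, that of Sox2 463 over 12918 and that of Sox14 112 over 16288. The Sox4 contig reached 4482 bases before the gene and 2597 past it, the Sox2 contig began 9772 bases before the gene and the Sox14 contig ran 13905 bases past its 3′ end, so these depths average over more than the gene. Sox21 contigs were not analysed here.

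Promoter windows of 250 bases before to 50 after the RefSeq start (GRCm38.p6) were matched for 7 of the 8 members, all but Sox3. For Sox1 and Sox2 the RefSeq start is not the start of the GENCODE M21 span given above, and distances are from the RefSeq start. Both strands were searched for 4 motifs, and a match describes letters only. The POU octamer ATGCAAAT was found in 1.74% of 32851 promoters and in the windows of Sox1 and Sox12, 18 bases after and 195 bases before the start. The Sox core ACAAAG was found in 18.7% of promoters and in the window of Sox2, 206 bases before the start. These 3 sites are shown as 30 bases of the gene's own strand with the motif in capitals, since they are the only matches to the motifs of SoxB1 proteins and their POU partners.
Sox1, chr8:12395526-12395555, plus strand: gccagcgcgccATGCAAATcaccgccgccg
Sox2, chr3:34649777-34649806, plus strand: ggggggggggatACAAAGgttccccagcgg
Sox12, chr2:152398223-152398252, minus strand: gcgattgggagATGCAAATgctgagttctc

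The CCAAT box, CCAAT, was found in the windows of 6 of the 7 members, all but Sox21, and in 37.4% of promoters. The TATA box, TATAAA, was found in none of the 7 and in 13.6% of promoters. The Sox12 sequence printed above also holds ATTGG, the reverse of the CCAAT box, which does not overlap the octamer. Member windows held 52.0% G and C in Sox4 to 76.7% in Sox12, against a median of 52.7% over all promoters.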

How the data were processed

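RNA-seq values of 2 biological replicates of 1 group were analysed. Per the labels, poly(A)+ RNA over 200 bases, depleted of ribosomal RNA, went with spike-ins into stranded libraries read from both ends. The deposited mm10 tables (GENCODE M4, per the accompanying deposited text) give expected counts, which are estimates that need not be whole, and TPM and FPKM, which the authors computed per gene from effective length. For each transcript the deposited tables also give its TPM and, in percent, its part of the gene. Length exceeded effective length by 197 and 187 bases. For mm9, deposited gene tables hold RPKM as text beside a score column that was not used, a deposited junction table holds read counts, and a deposited table of contigs, which has no header, was taken from its values as coverage signal. Which aligner and quantifier were used is not given in the sources used here.

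Symbols and positions came from GENCODE M21 on mm10 by stable identifier (42462 of 43346 genes). The tables' 69691 features include others that were left out of library sizes. Expected counts were rounded and TMM-scaled, adding a prior count of 1 (edgeR 4.0.16, R 4.3.3); the scaling was tested on simulated data with 200 genes changed. Intervals are exact 95% Poisson intervals, and a count of 0 allows 3 counts, or 0.0301 and 0.0223 CPM; both cover counting error only, because without molecular identifiers a read is not an independent molecule. The members, the lists and the rule for names were chosen with earlier results of these data known. The rule names all members, the highest and lowest gene of each list and, where a list's median ratio is at least 1 in size, its largest ratio, genes within 20 kb of a member and the 2 genes closest to it in level. Other genes were named after their values were seen. A gene of one list is not reported here and was left out of that list. Protein sequences were not used here, so boxes were compared as nucleotides. Alternatives were FPKM, CPM, TPM without mitochondrial genes and spike-ins, mm9 RPKM, DESeq2 1.42.0 size factors, other scalings, pseudocounts, thresholds and filters, and each replicate alone. Figures were drawn with matplotlib 3.10.9.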

Additional observations from a re-analysis of the deposited data

Results flagged for a closer look

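The mm9 junction table, which no comparison above uses for levels, listed reads with a gap inside members. In 5 of the 7 members present, the most-read gap had more reads than the 3 that a count of 0 allows. That limit covers counting error only and makes no allowance for taking the largest of several gaps in a gene. How often other genes of like read depth pass the limit was not tested. The 5 of 7 therefore describes these members and does not set them apart from other genes. The gap in Sox11 spanned 33 bases and had 1142 reads, 354 labelled R1 and 788 labelled R2. No label matches R1 and R2 to a replicate. The gap in Sox2 spanned 34 bases and had 80 reads. The most-read gaps in Sox4, of 78 bases, and in Sox12 had 11 reads each. The gap in Sox14, of 305 bases, had 8 reads. Sox3 and Sox21 had at most 3 and 2 reads in any gap.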

How the results depend on the processing

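The summed SoxB1, SoxB2 and SoxC levels change with the unit by construction. They were 70.7, 24.0 and 265 in FPKM, 186, 68.0 and 1584 in TMM-scaled CPM, and 14.4, 6.73 and 77.9 in mm9 RPKM, where Sox1 is left out. Without mitochondrial genes and spike-ins SoxB2 was 43.8 TPM. SoxC stayed above SoxB1, and SoxB1 above SoxB2, in each of these units. The log2 ratio of SoxC to SoxB1 was 3.11 by CPM, which is not per length, 2.44 by mm9 RPKM and 2.51 as a difference of medians. In single replicates it was 1.81 to 2.04, that of SoxB1 to SoxB2 was 1.22 to 1.85, and the sums were 92.3 to 139, 38.7 to 39.7 and 380 to 486 TPM. Of the 8 places in the order of levels, 3 were kept by CPM and 3 to 5 in single replicates; by mm9 RPKM 2 of 7 were kept. All 8 members were detected at 0.1 and 5 TPM, and none was 2-fold apart under any scaling, pseudocount or filter tried. The number of genes 2-fold apart went from 608 to 4418 without the filter on low counts and to 1196 with edgeR's filter, since more low genes are compared. The ratio of Sox12 was -0.0046 with total gene counts as the scale, and no other member's ratio changed sign. No paired analysis was possible because the labels give 1 group.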
